A study of Rattus norvegicus with 3 samples.

Results

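TMC3 is a group of thymic mesenchymal cells, the connective-tissue cells that lie between and around the epithelium, vessels and lymphocytes of the thymus. Its members were the cells that the study's annotation calls TMC3 in a single-cell library of rat thymic stroma, and no measured value was used here to choose them. They numbered 1152 of 13226 annotated cells, or 8.71% (95% exact Clopper-Pearson interval 8.23 to 9.20), and 14.0% of the 8216 cells in the 5 fibroblast groups. The other 4 groups were TMC1 with 1377 cells, TMC2 with 3080, TMC4 with 1249 and capFb with 1358. The tissue was the thymus of Lewis rats, which are inbred, at 8 weeks of age, with no genetic change or treatment named in the labels. Stroma was released by enzymes in warm buffer, and cells lacking CD45, a surface protein of blood-derived cells, were enriched by magnetic and flow sorting. The same study measured a thymus section by Stereo-seq, a chip that captures RNA at mapped spots, and assigned cell type names to its bins with RCTD, a method that estimates which types contribute to a spot. Each library stood alone (1 sample per group), so no test between groups was possible, and the number of animals behind it is not given in the sources used here.

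Thymic fibroblasts make matrix and growth factors, guide the entry and movement of T cell precursors and hold signals for the epithelium. Those of the capsule and septa wrap the organ, whereas those deeper inside lie along vessels and in the medulla, where CCL19 and CCL21 draw maturing thymocytes through their receptor CCR7. Fibroblasts also answer tissue stress or injury with fast transcription factors of the FOS, JUN, EGR and NR4A families and with IL-6 and prostaglandins, and enzymatic release of cells from tissue is known to switch on many of the same genes.

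The 1152 TMC3 cells held 10562051 UMIs (unique molecular identifiers, which count captured RNA molecules once each). The median cell had 8143, in a range of 683 to 32225. Median depth in the other fibroblast groups ran from 8269.5 in TMC2 to 11378.5 in capFb. The median share of mitochondrial UMIs was 1.13% in TMC3 and 0.991% to 1.16% in the others. All TMC3 cells fell in 1 cluster of the deposited clustering. The stromal and thymocyte libraries shared 38 cell barcodes, 1 of them a TMC3 cell. Levels below are CPM, the UMIs of a gene per 1000000 UMIs of a group, with 95% exact Poisson intervals. All intervals cover counting error only. The groups were made by clustering on these same genes, so every level and ratio between groups is a description with no test.

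TMC3 carried both markers given for it. Pdgfra, a growth factor receptor of fibroblasts, had a UMI in 87.7% of TMC3 cells and stood at 402 CPM, against 539 in TMC1, 589 in TMC2, 290 in TMC4 and 310 in capFb. Col1a1, the main chain of fibrillar collagen, had a UMI in 93.3% of TMC3 cells and stood at 1797 CPM, against 7465, 2745, 757 and 13156 in the same order. In cells thinned to 3000 UMIs, the share with a UMI in TMC3 was 68.0% for Pdgfra and 82.4% for Col1a1. The same shares were 7.72% and 20.8% in epithelial, 5.84% and 22.2% in endothelial and 19.4% and 42.2% in lymphoid cells. Median depths of all cells of these types before thinning were 11292, 7333 and 3420 UMIs. Thinning kept 325 lymphoid cells and left out 265 shallower ones, 253 of them thymocytes. Summed over 6 mesenchymal markers (Pdgfra, Col1a1, Col1a2, Col3a1, Dcn and Lum), TMC3 reached 21633 CPM, above TMC4 at 8923 and below TMC2 at 39342, TMC1 at 51016 and capFb at 55306. Among the types outside the fibroblast groups, the epithelial group TEC-c reached 20951 CPM for the same markers. Markers of mural cells, the contractile cells of vessel walls, were also present: Rgs5, Acta2, Myh11, Notch3 and Des summed to 685 CPM in TMC3 and 1091 in TMC4, against 17.4 to 103 in the other fibroblast groups and 4960 in the vSMC/PC group, the smooth muscle cells and pericytes. None of these 5 mural markers was at 0 in TMC3, and Des, an intermediate filament protein, made up 487 of the 685 CPM. Markers of other lineages summed to 28.5 CPM for 5 endothelial genes, 38.6 for 6 epithelial, 14.3 for 5 myeloid, 7.48 for 6 T lineage and 0.379 for 5 B lineage genes, of which 2 were at 0. Schwann cell markers summed to 9.28 CPM with 3 of 5 at 0, mesothelial markers to 20.1, erythroid to 2.65 and adipocyte to 1.42 CPM with 1 of 5 at 0 in each of the last pair. The corresponding sums in the other fibroblast groups were 18.9 to 199 CPM for endothelial, 29.7 to 37.4 for epithelial and 5.82 to 9.26 for myeloid markers.

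Few genes set TMC3 apart from all 4 other groups. Genes were compared where TMC3 held 100 UMIs or more, spread over no fewer than 10% of its cells. Only 8 of 8749 such genes (0.0914%) were at least 2-fold above the next highest group: Il6, Adamts4, Nabp1, Rcsd1, Ankrd33b, Coq10b, Btg2 and Asic2. By the same rule TMC1 led in 33 genes (0.373%), TMC2 in 39 (0.468%), TMC4 in 268 (3.06%) and capFb in 315 (3.58%). The largest lead was 2.38-fold in TMC3, against 6.57-fold to 44.2-fold in the other 4 groups. At 1.5-fold, TMC3 led in 32 genes (0.366%). At the edge of the 2-fold rule, Asic2 stood inside at 2.01 and Nr4a1 outside at 1.95. Among the 25 genes with the largest lead, Il6, Nabp1, Asic2, Tnfaip6, Itpkc, Ptgs2 and Gem were also higher in TMC3 than in every other annotated type, and the other 18 were higher in a type outside the fibroblasts.

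Il6, the gene for the cytokine interleukin-6, stood at 168 CPM (160 to 176) in TMC3, 70.4 in TMC4, 15.4 in TMC2, 13.3 in TMC1 and 11.2 in capFb. TMC3 was 2.38-fold above TMC4 (2.19 to 2.59) and the highest of all annotated types. In cells thinned to 3000 UMIs, a UMI of Il6 was found in 21.4% of 1089 TMC3 cells (19.0 to 24.0), against 15.5% of TMC4, 3.25% of TMC2 and 0.987% of epithelial cells, whose median depth was 11292 UMIs. Without thinning the shares of TMC3 and TMC4 were 34.5% and 34.7%, and the median depths before thinning were 8143 and 8717 UMIs.

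Other secreted or inflammatory products led by less. Tnfaip6, a secreted protein that binds hyaluronan and is made during inflammation, stood at 524 CPM in TMC3, 284 in TMC1, 250 in capFb, 190 in TMC2 and 77.7 in TMC4, a lead of 1.85-fold (1.77 to 1.92). Ptgs2, the inducible cyclooxygenase that starts prostaglandin synthesis, stood at 167 CPM against 92.7 in TMC4 and 59.4 in TMC2, a lead of 1.81-fold. Cxcl1, a neutrophil chemokine, reached 127 CPM, 1.84-fold above capFb at 69.2, but had a UMI in only 9.46% of TMC3 cells. Tslp, a cytokine known mainly from epithelium, stood at 5.11 CPM against 2.85 in TMC2, a ratio of 1.80 (1.24 to 2.58).

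Btg2, an antiproliferative gene that responds quickly to stimulation, stood at 361 CPM in TMC3, 169 in TMC4, 77.4 in TMC1, 75.9 in TMC2 and 60.1 in capFb, a lead of 2.14-fold (2.02 to 2.26), while thymocytes of the stromal library reached 2034. It stood first among the fast-response genes. Fosb, a partner of JUN proteins in the AP-1 factor, led by 1.89-fold (265 CPM against 140 in TMC1), and Junb, another AP-1 member, by 1.87-fold (750 against 402 in TMC1). Nr4a1, an orphan nuclear receptor induced within minutes of a stimulus, led by 1.95-fold (120 against 61.5 in TMC4) and its relative Nr4a2 by 1.62-fold. Zfp36, which speeds the decay of cytokine messages, led by 1.80-fold (368 against 204 in TMC4), Ier3 by 1.87-fold and Ier2 by 1.63-fold. Of the 25 genes with the largest lead, 7 were on a list of 23 immediate-early and heat-shock genes. Of the 8 genes that led by 2-fold, 1 was on it. The list holds 23 of the 14942 genes with at least 20 UMIs in a group. Leads were ranked among the 8749 genes that met the stricter minimums. How many of the 23 are among those is not given here, so the 2 shares are not on the same footing.

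Asic2, an acid-sensing ion channel subunit best known from neurons, was high in TMC2 and TMC4 as well. It stood at 168 CPM in TMC3, 83.7 in TMC2, 75.5 in TMC4, 7.98 in TMC1 and 4.76 in capFb, which placed TMC3 2.01-fold above the next group (1.89 to 2.14) and highest of all annotated types. A UMI was found in 31.9% of thinned TMC3 cells (29.1 to 34.7), 18.7% of TMC2, 15.5% of TMC4, 1.40% of TMC1 and 0.445% of capFb cells. Endothelial cells, at a median depth of 7333 UMIs, gave 0.495%, and the unthinned share of TMC3 was 49.8%. Every group was also cut to cells at or below the pooled median of the immediate-early list. Asic2 was then the only gene that met the UMI and cell minimums and led by 2-fold, at 2.32-fold. This subset of 513 TMC3 cells was chosen after the leading genes were seen.

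Several further leads concerned matrix and signalling enzymes. Adamts4, a protease that cuts aggrecan and versican, stood at 22.4 CPM in TMC3 and 9.61 in TMC4, a ratio of 2.34 (1.86 to 2.95), and Adamts9, its relative, at 50.6 against 30.8 in TMC2. Ednrb, a receptor for endothelins, stood at 90.0 CPM in TMC3, 49.1 in TMC4, 35.3 in TMC2, 15.4 in TMC1 and 1.79 in capFb. Nabp1, a single-stranded DNA binding protein of the repair machinery, stood at 69.1 CPM against 30.2 in TMC2, and Coq10b, which serves coenzyme Q in mitochondria, at 88.8 against 40.9. Rcsd1 (13.9 CPM) and Ankrd33b (15.2 CPM) completed the 8 genes and had a UMI in 10.2% of TMC3 cells each. Dgat1, which makes triglycerides, Itpkc, Csgalnact1, Rhob, Sik1 and Gem led by 1.60-fold to 1.91-fold.

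**Figure D1:**
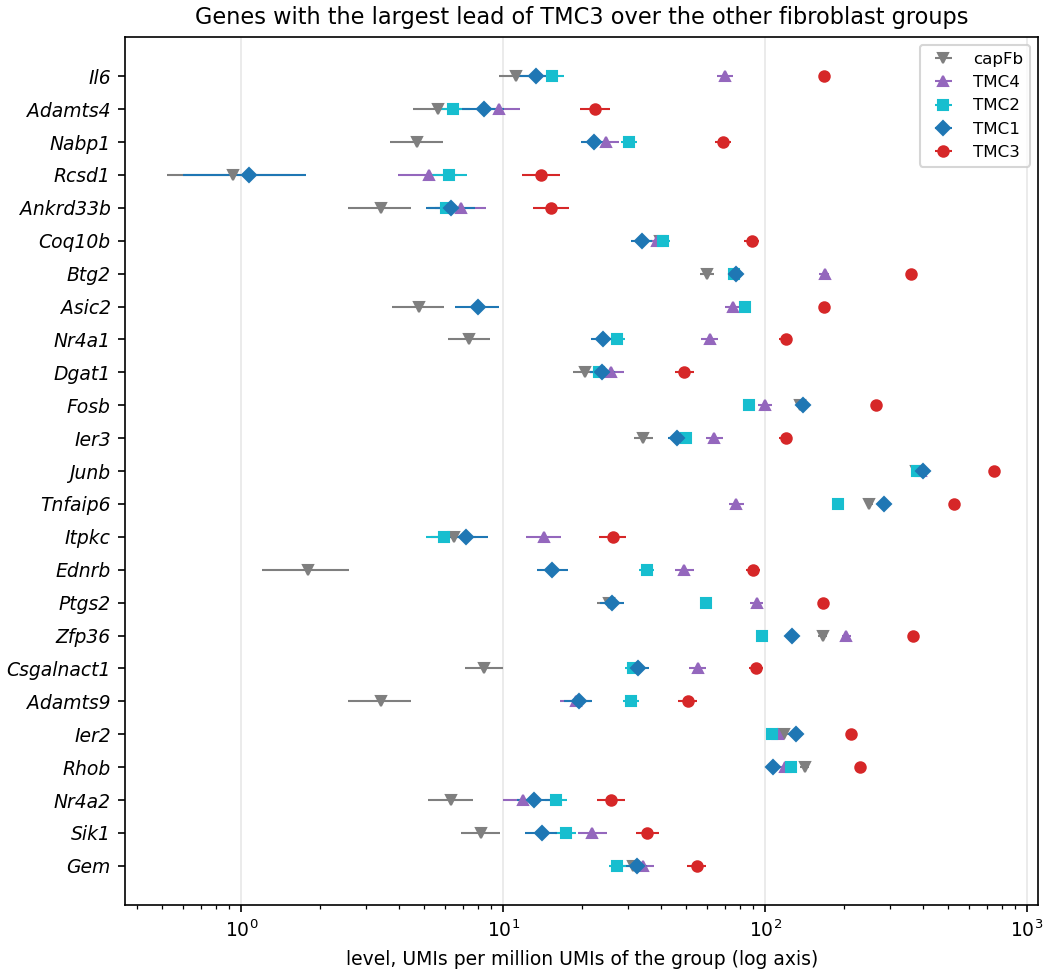
Levels of the 25 genes with the largest lead of TMC3, one row per gene, on a log axis of CPM, with a point per fibroblast group and 95% Poisson intervals. TMC3 is to the right of the other 4 groups in each row, TMC4 is most often next, and the lead runs from 2.38-fold for Il6 to 1.60-fold for Gem.

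The leading genes were looked up for the 250 bases before their start, since they stood highest in the same group and many are known targets of fast transcription factors. RefSeq (GRCr8) gave a promoter for 21 of the 25. The cAMP response element TGACGTCA, searched on both strands, was in the windows of Il6, Btg2 and Ier2, against 1.59% of 33469 rat promoters of the same length. The AP-1 element TGANTCA was in that of Tnfaip6 (6.34% of all promoters), a CArG box in that of Zfp36 (1.5%), and a kappa B site in those of Il6, Ankrd33b and Nr4a1 (3.54%). The windows with the cAMP element are shown because Il6 and Btg2 carried leads above 2-fold and Ier2 is a fast-response gene, with the matched bases in capitals. The element lay 162 bases before the start in Il6 (chr4:5894576-5894825, minus strand), 201 bases before it in Btg2 (chr13:48087691-48087940, minus strand) and 66 bases before it in Ier2 (chr19:40399123-40399372, plus strand), and the second match in Il6, 68 bases before the start, is the kappa B site. A match is a string of letters in a window and says nothing of binding in these cells.
Il6 promoter: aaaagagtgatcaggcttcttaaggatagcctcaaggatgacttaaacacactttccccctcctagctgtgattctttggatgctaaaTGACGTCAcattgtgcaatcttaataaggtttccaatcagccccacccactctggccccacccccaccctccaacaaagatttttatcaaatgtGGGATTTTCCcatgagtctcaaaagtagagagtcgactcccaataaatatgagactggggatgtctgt
Btg2 promoter: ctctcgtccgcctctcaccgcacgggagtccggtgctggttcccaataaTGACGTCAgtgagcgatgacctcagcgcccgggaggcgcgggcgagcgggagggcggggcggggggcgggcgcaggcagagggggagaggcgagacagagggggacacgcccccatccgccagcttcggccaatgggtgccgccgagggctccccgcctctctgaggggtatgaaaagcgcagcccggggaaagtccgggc
Ier2 promoter: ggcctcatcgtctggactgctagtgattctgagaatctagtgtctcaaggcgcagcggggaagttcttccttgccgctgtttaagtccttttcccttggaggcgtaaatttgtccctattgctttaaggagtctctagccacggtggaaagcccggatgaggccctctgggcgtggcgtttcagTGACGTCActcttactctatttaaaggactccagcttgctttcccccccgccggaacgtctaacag

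The immediate-early and heat-shock list had a longer upper tail in TMC3 than in the other fibroblast groups. Summed over its 23 genes TMC3 reached 7969 CPM, capFb 7394, TMC4 5378, TMC1 4727 and TMC2 4000. Medians over cells gave another order, with 3753 CPM in TMC3, 3684 in TMC4 and 5283 in capFb, whereas the 95th percentile was 34830 in TMC3, 21213 in capFb and 15943 in TMC4. TMC3 was the highest of the 5 groups for 14 of the 23 genes, beside 15.8% of 14942 genes with at least 20 UMIs in a group, and 9 led by 1.5-fold or more, beside 0.830% of all genes. Those 9 were Fosb, Junb, Egr2, Atf3, Ier2, Ier3, Zfp36, Nr4a1 and Btg2. Dusp1, a phosphatase that switches off stress kinases, stood at 203 CPM against 531 in capFb, and the chaperone Hspa1b was nearly even, at 958 against 936 in TMC4.

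In the cells at or below the pooled median of the list, 1 gene led by 2-fold in place of 8, and TMC3 was no longer highest for 5 leading genes outside the list. The ratio of TMC3 to the highest other group there was 0.855 for Il6, 0.636 for Tnfaip6, 0.957 for Itpkc, 0.726 for Ptgs2 and 0.484 for Adamts9. This subset kept unequal shares of the groups, from 28.4% of capFb and 44.5% of TMC3 to 61.9% of TMC2, and it was chosen after the leads were seen. The source of the leads was not tested. Whether the fast response was present in the tissue or came with release of the cells was not tested. The endothelial group Endo-1, from the same digestion, reached 17250 CPM over the list. In cells with no UMI of epithelial, endothelial, myeloid, B or T lineage markers, also chosen after seeing the data (623 TMC3 cells), 18 genes led by 2-fold.

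**Figure D2:**
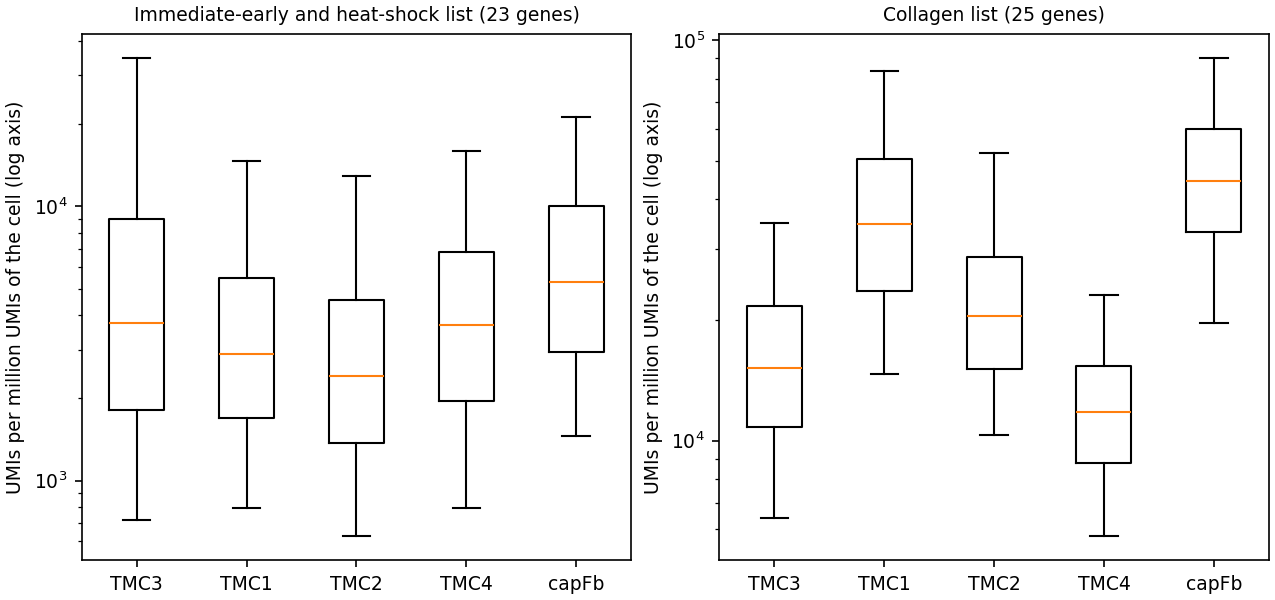
Summed level per cell of the immediate-early and heat-shock list (left) and of the collagen list (right) in the 5 fibroblast groups, on log axes; boxes span the quartiles with the median as a line, and whiskers reach the 5th and 95th percentiles of cells. TMC3 has a median of 3753 and a 95th percentile of 34830 on the left, and on the right its median of 15214 lies between TMC4 at 11753 and TMC2 at 20451.

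No gene was at least 2-fold below all 4 other groups among 8822 tested (0%), and 6 were at least 1.5-fold below (0.0680%), 1 of them not named because it is mitochondrial or known by an identifier. Apcdd1, an inhibitor of Wnt signalling, stood at 7.29 CPM in TMC3, 13.2 in TMC4, 13.5 in TMC1, 17.0 in TMC2 and 27.9 in capFb, a ratio of 0.554 to the lowest other group (0.416 to 0.734). Mme, a membrane peptidase also called CD10, stood at 43.0 CPM in TMC3 and 72.0 to 112 in the others. Ntrk2, the receptor for the neurotrophin BDNF, stood at 107 CPM in TMC3, 157 in TMC4, 215 in TMC2, 244 in capFb and 351 in TMC1. Lnx1 (6.25 CPM), Sh3gl2, an endophilin, and Cacna2d3, a calcium channel subunit (9.66 CPM), were at ratios of 0.641, 0.643 and 0.666. The other 10 of the 15 lowest genes, among them Ntrk2 and the cell-cycle gene Ccnd1, were at ratios of 0.684 to 0.797.

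TMC3 lay between TMC4 and the pair TMC1 and TMC2 for most genes that separate them. Among 1096 genes at least 4-fold apart between TMC2 and TMC4, the TMC3 level was between the 2 groups for 1057 (96.4%), at a median position of 0.511 on the log scale, where 0 is TMC2 and 1 is TMC4. Between TMC1 and TMC4 it was between for 1116 of 1152 genes (96.9%, median position 0.568). The share was also high between TMC4 and capFb, at 88.1% of 1487 genes. Between TMC1 and TMC2 it was 63.4% of 164 genes, between TMC2 and capFb 64.0% of 975, and between TMC1 and capFb 49.5% of 550. Over 11809 genes, the levels of TMC3 correlated with those of TMC4 at r = 0.941, TMC2 at 0.930, TMC1 at 0.911 and capFb at 0.832 (log2 of CPM plus 1, across genes, which are not independent), while TMC2 and TMC4 themselves gave 0.806.

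Pairwise counts were smallest against TMC4 and largest against capFb. Against TMC4, 468 of 10080 genes were at least 2-fold higher in TMC3 (4.64%) and 373 lower (3.70%). Against TMC2, 616 of 10663 were higher (5.78%) and 420 lower (3.94%), and against TMC1 724 of 10254 were higher (7.06%) and 516 lower (5.03%). Against capFb, 1333 of 10281 were higher (13.0%) and 766 lower (7.45%). TMC2 and TMC4 differed by 2-fold in 20.7% of their genes.

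The 5 genes highest in TMC3 against TMC2 were higher still in TMC4. Tagln, a smooth-muscle protein that binds actin, stood at 1544 CPM in TMC3, 4114 in TMC4 and 19.6 in TMC2, so TMC3 was 78.6-fold above TMC2 (72.1 to 85.9). Hdac9, a histone deacetylase of muscle and lymphoid cells, stood at 434, 2349 and 5.25 CPM in the same order. Gcnt2, which branches cell-surface sugars, stood at 75.2, 269 and 0.749, Csmd1 at 116, 697 and 1.46, and Stac at 34.6, 130 and 0.337. The genes lowest against TMC2 were sparse in TMC3: Gria1, a glutamate receptor subunit, at 1.61 CPM against 22.6, and Pappa2, a protease of IGF-binding proteins, at 2.46 against 24.0. Jph3, Agtr2 and Lrat had 4 to 6 UMIs in TMC3.

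Against TMC4, the genes highest in TMC3 were higher in TMC1 or TMC2, or in capFb, with the exception of Muc16. Slco1a4, an organic anion transporter, stood at 11.7 CPM in TMC3, 68.8 in TMC2 and 0.433 in TMC4. Tmeff2, a membrane protein with follistatin-like domains, stood at 53.3 CPM in TMC3, 375 in TMC1, 135 in TMC2 and 2.60 in TMC4. Sectm1b stood at 20.9 CPM against 0.779 in TMC4. Genes far below TMC4 were Slc7a11, the cystine transporter (6.82 CPM against 111), Tnn, the matrix protein tenascin-N (4.73 against 60.4), Dcc, a netrin receptor (6.72 against 67.8), Cntn1 (1.61 against 23.4) and Ccl20 (1.51 against 16.2).

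Some of these contrasts came from few cells. Muc16, a mucin of mesothelium, had 112 UMIs in 0.174% of TMC3 cells, which set its ratio of 123 to TMC4 (21.5 to 4883), where it had 1 UMI. Mrgprg, at 446 CPM in capFb, stood at 17.9 CPM in TMC3 with a UMI in 1.91% of its cells. Against TMC1, Ncam2, a neural adhesion molecule, was 96.5-fold higher in TMC3 (34.4 against 0.356 CPM), and the class I genes RT1-M1-4 and RT1-M1-5 stood at 11.3 and 9.47 CPM with 1 and 0 UMIs in TMC1. These 2 genes are near copies of others in the rat MHC, so reads may be shared among them. Spic, a transcription factor of iron-recycling macrophages, had 139 UMIs in TMC3, 508 in TMC4 and 0 in TMC1, and Gjd3, a connexin, 111 in TMC3 and 1 in TMC1. Frmd5, at 1.14 CPM, was 29.5-fold below TMC1 (33.6 CPM), and Adgrb3, Igfbp2, Ucma and Mlxipl were each at or under 7 UMIs in TMC3.

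Against capFb, Cytl1, a small secreted protein of cartilage and blood precursors, had 599 UMIs in TMC3 (56.7 CPM) and 2 in capFb, a ratio of 458 (126 to 3793). A2m, a broad protease inhibitor, and Kcnk2, a potassium channel, had 125 and 137 UMIs in TMC3 and 0 in capFb. In the other direction, Akr1c3 stood at 2.84 CPM against 126 in capFb and Fam167a at 0.568 against 20.7. Vxn had 0 UMIs in TMC3 and 187 in capFb, and Aard and Thbs4 had 5 and 3 in TMC3.

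Most TMC3 barcodes held UMIs of both sides above the levels usual for the opposite group, and droplets of 2 cells were not separated from them. Per cell thinned to 3000 UMIs, 479 genes at least 4-fold higher in TMC4 than in both TMC1 and TMC2 made up a median of 3.73% of UMIs in TMC3, 9.63% in TMC4, 0.667% in TMC2 and 0.600% in TMC1. The 401 genes of the opposite side made up 4.13% in TMC3, 1.13% in TMC4, 11.5% in TMC2 and 12.5% in TMC1. The middle 90% of TMC3 cells ran from 1.27% to 7.64% of UMIs for the first set and from 1.43% to 10.0% for the second. These sets were picked from the same cells, so the figures are a description.

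Of 1089 thinned TMC3 cells, 755 (69.3%, 66.5 to 72.1) were above the 95th percentile of TMC2 for TMC4-side genes (1.23% of UMIs) and also above the 95th percentile of TMC4 for the other side (2.60%). A further 281 (25.8%) passed for the TMC4 side only, 53 (4.87%) for the TMC1/TMC2 side only and 0 for neither. The share that passed on both sides was 5.82% in TMC1, 4.92% in TMC2 and 4.95% in TMC4. The genes and cutoffs were set from these groups, which keeps their shares low in advance, so they are no background for TMC3. In capFb, which was not used to set them, 6.46% passed on both sides. Median depth before thinning was 9299 UMIs in TMC3 cells that passed on both sides, 6840 in those of the TMC4 side and 7681 in those of the other. No doublet caller was run, and the part of 2-cell droplets in the share that passed on both sides was not tested.

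The 3 classes differed in genes that neither set held. Ptgs2 stood at 174 CPM (165 to 184) in cells that passed on both sides, 173 in TMC4-side cells and 39.3 (23.3 to 62.2) in TMC1/TMC2-side cells. Tnfaip6 followed another order, at 608, 270 and 111 CPM. Asic2 stood at 152, 237 and 114 CPM, and Cxcl12, the chemokine that holds T cell precursors, was even, at 970, 1030 and 1104. Pdgfrb, a receptor of mural and reticular cells, stood at 335, 473 and 131 CPM, and Pi16, a marker of adventitial fibroblasts, at 283, 13.0 and 26.2.

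**Figure D3:**
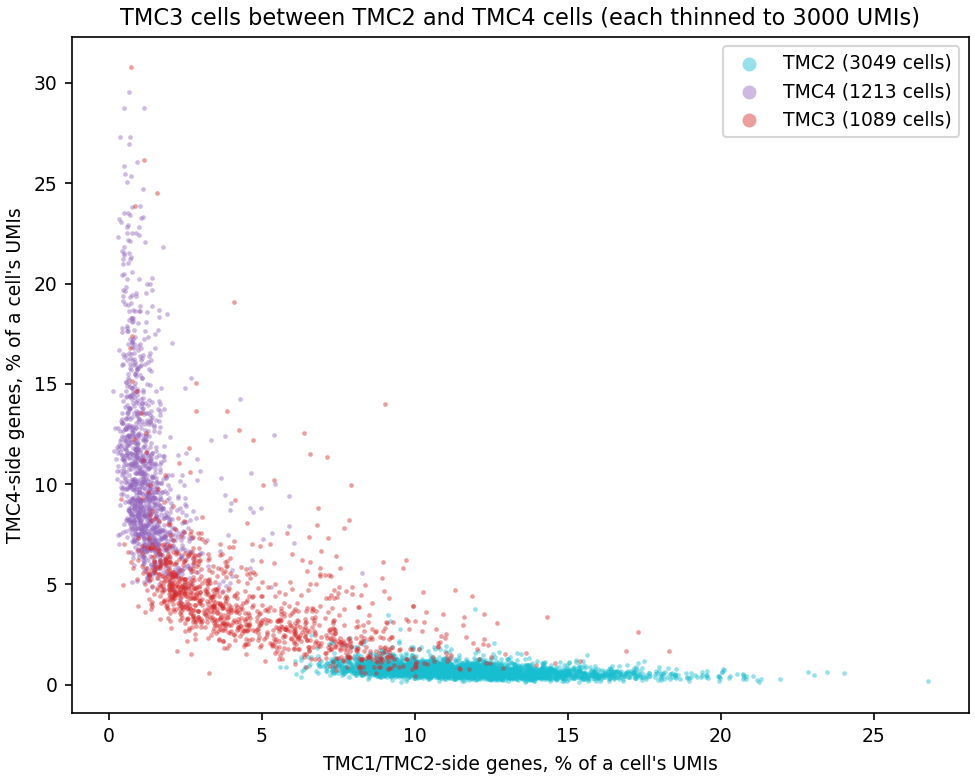
Each point is a cell thinned to 3000 UMIs, with its share of UMIs in 401 TMC1/TMC2-side genes on the horizontal axis and in 479 TMC4-side genes on the vertical axis, for TMC2, TMC4 and TMC3. TMC3 cells form a band from the TMC4 cells to the TMC2 cells, with medians of 4.13% and 3.73%.

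In the deposited map of cells (UMAP), 84.2% of the 15 nearest neighbours of TMC3 cells were TMC3, 7.29% TMC4, 4.97% TMC2, 1.24% vSMC/PC and 1.14% TMC1. All 15 were TMC3 for 695 cells (60.3%), and fewer than 1 in 2 were for 155 (13.5%). Because 84.2% of the neighbours were TMC3 itself, every other type was held to a low share of them. By count, 1259 neighbours were TMC4, 858 TMC2, 215 vSMC/PC, 197 TMC1 and 15 capFb. Of all annotated cells, TMC4 made up 9.44%, TMC2 23.3%, vSMC/PC 3.42%, TMC1 10.4% and capFb 10.3%. The capFb share of the neighbours was 0.0868%.

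Gene lists by role placed TMC3 between its neighbours in most programmes. Over all 14942 genes tested, TMC3 was highest for 15.8%, highest by 1.5-fold for 0.830% and lowest for 4.42%. The counts given for each list below stand beside those shares. For 25 collagens the median log2 ratio of TMC3 was -0.15 to TMC1, -0.31 to TMC2, 0.68 to TMC4 and 0.71 to capFb, beside 0.10, 0.09, 0.02 and 0.25 over all 14942 genes. TMC3 was highest for 2 collagens, by 1.5-fold for 0, and lowest for 1, Col16a1, beside 4.42% of all genes. Those 2 were the basement membrane chains Col4a1 (999 CPM against 843 in TMC2) and Col4a2 (394 against 321 in TMC4). The fibrillar chain Col1a2, like Col1a1, was lower than in every group but TMC4, at 2227 CPM against 7137 in TMC1, 4062 in TMC2, 8975 in capFb and 822 in TMC4. Col15a1, of vessel-side basement membranes, stood at 468 CPM against 880 in TMC2 and 73.0 in TMC4.

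Of 34 elastic fibre and matrix glycoprotein genes, TMC3 was highest for 2 and lowest for 0, beside 15.8% and 4.42% of all genes. Fbn1, the fibrillin of elastic microfibrils, stood at 774 CPM against 6650 in capFb, 1660 in TMC1, 523 in TMC4 and 494 in TMC2. Tnc, the stress-induced glycoprotein tenascin-C, reached 25.3 CPM, against 19.3 in TMC4 and 0.928 to 1.65 in the others. Among 16 proteoglycans Dcn, the small proteoglycan decorin, stood at 8964 CPM, between TMC4 at 2026 and capFb at 14278. Bgn, its relative biglycan, was nearly even with TMC4, at 1085 against 1013. Of 21 matrix proteases and inhibitors, TMC3 was highest for 2, Timp1 (286 against 267 CPM in TMC4) and Adamts1 (51.8 against 51.2 in TMC2), and lowest for 1, the protease Htra1. All genes gave 15.8% highest and 4.42% lowest.

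Genes of adventitial and capsular fibroblasts gave the widest span, with a median log2 ratio over 18 genes of 2.76 to TMC4 and -3.17 to capFb. Pi16 stood at 217 CPM in TMC3, 4894 in capFb, 371 in TMC1, 39.2 in TMC2 and 18.5 in TMC4. Cd34, a surface protein of adventitial progenitors, stood at 172 CPM against 1097 in capFb, 713 in TMC1, 473 in TMC2 and 13.4 in TMC4. Sema3e, a guidance factor, was the only one highest in TMC3 by 1.5-fold, at 4.26 CPM against 0.952 in TMC4, with a UMI in 1.22% of cells.

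Several reticular and immune-interacting genes were high in TMC3 and higher in TMC4. Over 17 genes the median log2 ratio was 1.19 to TMC1, 1.10 to TMC2, 2.21 to capFb and -0.55 to TMC4. Ccl19 stood at 3748 CPM in TMC3, 13615 in TMC4 and 60.7 to 120 in the others. Ccl21 stood at 4160 CPM, 22085 in TMC4 and 85.7 to 106 in the others. Il7, the survival factor of early thymocytes, stood at 90.3 CPM against 193 in TMC4 and 21.7 in TMC2, and Il33, an alarm cytokine stored in the nucleus, at 1859 against 2872 and 612. Cxcl13, which draws B cells, ran the other way, at 57.0 CPM in TMC3, 456 in TMC2 and 12.6 in TMC4.

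Among 17 other chemokines and cytokines TMC3 was highest for 5 and by 1.5-fold for 3, Il6, Cxcl1 and Tslp, beside 15.8% and 0.830% of all genes. Cx3cl1, a membrane-bound chemokine, stood at 89.8 CPM, 1.38-fold above TMC2 at 65.2. The monocyte chemokines Ccl2 and Ccl7 were second to TMC4, at 601 against 804 and 509 against 672 CPM, and at 80.6 or less in the rest. Cxcl12 stood at 987 CPM, between TMC2 at 1124 and TMC1 at 872. Cxcl14 stood at 862 CPM, against 3132 in TMC2 and 137 in TMC4.

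Contractile and Notch genes were nearer to TMC4 than to the other groups. Over 12 contractile genes the median log2 ratio was 1.57 to TMC1, 1.66 to TMC2 and -0.38 to TMC4, and TMC3 was highest for 0. Acta2, smooth-muscle actin, stood at 38.1 CPM in TMC3, 119 in TMC4 and 1.92 to 3.93 in the others, and Tpm2, a tropomyosin, at 301, 370 and 6.81 to 61.6. Over 10 Notch genes the median log2 ratio was 1.91 to TMC2, 3.14 to capFb and -0.24 to TMC4. The receptor Notch3 stood at 125 CPM against 190 in TMC4 and at most 7.01 elsewhere, and the target Hes1 at 66.0 against 54.6 in TMC2 and 50.8 in TMC4. These are also genes of mural cells, whose 5 markers summed to 685 CPM in TMC3, and the part of mural cells or their RNA in these values was not tested.

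BMP, TGF-beta and Wnt lists were lower than in TMC1 and TMC2 and higher than in TMC4. Over 25 BMP and TGF-beta genes the median log2 ratio was -0.59 to TMC1, -0.31 to TMC2 and 1.21 to TMC4, and TMC3 was highest for 0. Bmp4, a ligand that acts on thymic epithelium, stood at 84.3 CPM against 292 in TMC2 and 36.2 in TMC4, and Fst, which traps activin, at 80.1 against 443 in TMC1 and 10.2 in TMC4. Over 20 Wnt genes the medians were -0.74, -0.52 and 0.78 in that order, with TMC3 highest for 0. Sfrp1, a secreted Wnt blocker, stood at 342 CPM, 1789 in TMC2 and 27.3 in TMC4.

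Among 17 FGF, HGF and IGF genes, Igf2, a fetal growth factor, was the only one highest by 1.5-fold, at 36.4 CPM against 13.5 in TMC2, a ratio of 2.70 (2.33 to 3.12), with a UMI in 7.81% of cells. Fgf7 and Fgf10, which act on epithelium, stood at 109 and 64.2 CPM, below TMC2 at 127 and 180. Among 17 PDGF and VEGF genes TMC3 was highest for 2, beside 15.8% of all genes. These were Nrp1 (550 against 536 CPM in TMC2) and Flt1 (3.41 against 2.42 in TMC4). Pdgfrb stood at 356 CPM against 534 in TMC4, 136 in TMC2 and 15.7 in capFb.

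Among 31 transcription factors of mesenchyme, TMC3 was highest for 3, Nr4a1, Prrx1 (915 against 841 CPM in TMC4) and Gli2 (62.6 against 54.3), a smaller share than the 15.8% of all genes. Nr2f2, a nuclear receptor of venous and mesenchymal cells, stood at 527 CPM, close to TMC4 at 553 and above TMC2 at 274. Klf4 stood at 135 CPM against 619 in capFb. Among 14 steroid and prostaglandin genes, Ptgs2 and Ptgds were highest by 1.5-fold, Ptgds at 3.88 CPM against 0.712 in TMC1 with a UMI in 0.521% of cells. Ptgis, which makes prostacyclin, stood at 23.8 CPM against 254 in capFb.

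Of 14 cell-cycle genes tested, 3 were highest by 1.5-fold in TMC3, beside 0.830% of all 14942 genes. They were Mki67, a mark of cycling cells, at 6.34 CPM against 3.46 in TMC4 and a UMI in 2.86% of cells, Cenpf at 4.54 against 1.56, and Ccnb2 at 3.12 against 1.71. The whole list summed to 141 CPM in TMC3 and 135 in TMC4, against 4663 in the B cell group.

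Among 20 antigen presentation and interferon genes, TMC3 was highest for 4, a share near the 15.8% of all genes, and by 1.5-fold for 0. B2m, the light chain of class I molecules, was at 5897 CPM in TMC3, 7777 in TMC4 and 3538 to 4564 in the others, and Tap1, a peptide transporter, at 90.9, 129 and 30.6 to 33.6. Cd74, the class II invariant chain, stood at 24.2 CPM against 18.2 to 21.5 in the others. C7, a late complement component, stood at 6731 CPM in TMC3, 10851 in TMC2 and 3047 in capFb, and TMC3 was highest for 0 of 16 complement genes.

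Of 23 adhesion and guidance genes TMC3 was highest for 3, a share near the 15.8% of all genes. These were Thy1 (244 against 230 CPM in TMC4), Itgb8 and Efna5, the last at 1.89 CPM with a UMI in 0.434% of cells. Itga1, a collagen-binding integrin chain, stood at 453 CPM in TMC3, 839 in TMC4 and 16.4 to 67.7 in the others. Of 16 nerve-associated genes, Ptn, a heparin-binding growth factor, stood at 2055 CPM in TMC3, 3309 in TMC2, 928 in TMC1 and 925 in TMC4. Among 17 adipogenic and lipid genes TMC3 was highest for 2, Cebpb (258 against 209 CPM in TMC2) and Plin2, beside 15.8% of all genes. Lepr, the leptin receptor, stood at 46.0 CPM against 160 in TMC4. No gene on any of the 24 lists was lowest in TMC3 by 1.5-fold, beside 0.529% of all genes.

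**Figure D4:**
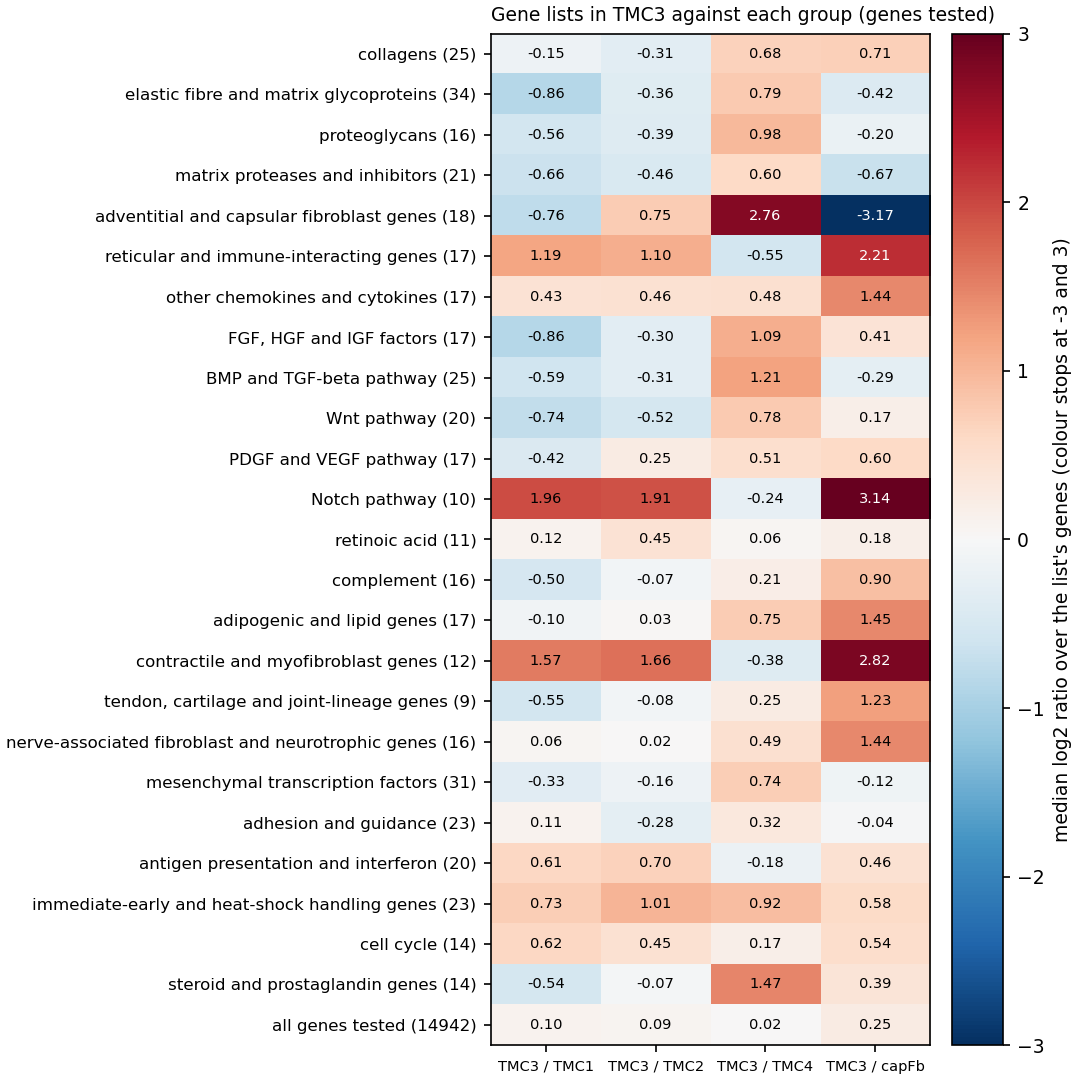
Median log2 ratio of TMC3 to each other fibroblast group over the tested genes of 24 lists and, in the last row, all 14942 genes tested; colours stop at -3 and 3. Against TMC1 and TMC2 the reticular, Notch and contractile lists are red and most matrix and growth factor lists blue, and against TMC4 the order turns, with 2.76 for adventitial and capsular genes and -0.55 for reticular genes.

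TMC3 cells varied widely among themselves. In cells thinned to 3000 UMIs, 399 of 10360 genes had a variance at least 2 times their mean, and the median gene had a ratio of 1.06. Ccl21 varied most, with a ratio of 195. It had a UMI in 40.9% of thinned cells, a median of 0 and a highest cell of 661 UMIs, and the top 10% of cells held 91.7% of its UMIs. A UMI of Ccl21 was also found in 22.4% of TMC1, 24.0% of TMC2, 20.9% of capFb, 32.9% of epithelial, 26.5% of endothelial and 25.8% of lymphoid cells thinned alike, and the part of free RNA in the TMC3 share was not tested. The unthinned share was 63.5%, and median depths were 8143 UMIs in TMC3 and 7333 in endothelial cells. Ccl19 was more evenly spread, with a ratio of 38.3 and a UMI in 74.6% of thinned cells (84.6% unthinned), against 12.9% of capFb and 21.9% of endothelial cells. In TMC4 the ratios were 150 for Ccl21 and 41.8 for Ccl19.

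Mgp, which blocks calcification, had a ratio of 37.7 in TMC3 and 57.6 in TMC1. Apoe, a lipid carrier, had 37.0, and 37.7 in TMC4. Gsn, which cuts actin filaments, had 16.1, below TMC1 at 26.7 and TMC2 at 17.5, and Dcn had 12.8, against 12.7 in TMC1. Tnfaip6 had a ratio of 23.2 in TMC3 against 3.17 to 7.43 in the other groups, with 87.8% of its UMIs in the top 10% of cells. Fosb had 12.6 against 3.46 to 7.48, Fos 13.3 against 6.48 to 6.98, Cxcl1 12.5, Ccl2 21.4 and Adamts9 11.5. For Obp3, an odorant-binding protein, Gpm6a, a neuronal membrane protein, and Pi16, a UMI was found in 8.08%, 2.20% and 10.1% of cells. At least 99.7% of their UMIs lay in the top 10% of cells, which such low shares of cells fix almost in advance. The ratio of Obp3 was 21.9 in TMC3 and 27.8 in TMC2.

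In the thymus section, the deposited labels put TMC3 in the capsular area and in the epithelium-free medulla more often than in the cortex. They did the same for the vSMC/PC label. TMC4 shared the excess in the epithelium-free medulla, but its capsular excess depended on the setting. Bins of 20 chip units, nominally 10 µm wide, carried up to 3 labels each, and 592087 were labelled, with a median of 326 UMIs. A bin can hold several cells or parts of cells. TMC3 was the first label of 266 bins: 160 of 123373 in the capsular area (0.130%), 62 of 409180 in cortex (0.0152%), 17 of 40180 in the epithelium-containing medulla (mECA, 0.0423%) and 27 of 19354 in the epithelium-free medulla (mEFA, 0.140%). The share was 8.56 times that of cortex in the capsular area (6.38 to 11.5), 9.21 times in mEFA (5.86 to 14.5) and 2.79 times in mECA (1.63 to 4.77). In bins at or above the median UMIs these ratios were 5.84 (4.20 to 8.13), 5.06 (3.19 to 8.02) and 1.47 (0.850 to 2.53), and for confident first labels, a setting chosen after seeing the data, 4.62 (2.84 to 7.51), 6.80 (3.21 to 14.4) and 1.82 (0.702 to 4.71). The mECA interval thus included 1 in both settings. By first label in all bins, vSMC/PC was at 5.27, 8.13 and 4.09 times cortex in the same order, and TMC4 at 2.86, 32.2 and 23.1 times. The capsular ratio of TMC4 was 1.56 (0.913 to 2.67) in bins at or above the median UMIs and 0.896 (0.446 to 1.80) for confident first labels. By first label of segmented cell bins it was 0.711 (0.510 to 0.991). Region names are deposited, and reading mECA and mEFA as epithelium-containing and epithelium-free areas rests on the series title. Neighbouring bins share tissue, so the intervals are too narrow.

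TMC3 was far more often a second label than a first, with 2470 bins in second place and 183 in the third. This held for every fibroblast label. Second and first labels numbered 1486 and 75 for TMC1, 1256 and 45 for TMC2, 4518 and 249 for TMC4, and 1126 and 51 for capFb. For TMC3 the median RCTD weight, a deposited fraction, was 0.418 in first place and 0.181 in second, and 81 first labels (30.5%) were marked confident. That share was the lowest of the fibroblast and vSMC/PC labels. It was 45.3% for TMC1, 46.3% for vSMC/PC, 55.6% for TMC2, 79.1% for TMC4 and 94.1% for capFb. Over any place, 2919 bins carried the TMC3 label. They were 1132 in the capsular area (0.918%), 1193 in cortex (0.292%), 294 in mECA (0.732%) and 300 in mEFA (1.55%). The ratios to cortex were then 3.15, 2.51 and 5.32. The share in mEFA was 2.12 times that in mECA (1.81 to 2.49), and 3.30 times (1.80 to 6.05) by first label.

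The spread over the section stood between those of the other groups. The capsular area held 38.8% of bins with a TMC3 label in any place, against 80.6% for TMC1, 71.3% for TMC2, 81.6% for capFb and 16.4% for TMC4. By distance from the deposited capsule outline, TMC3 was in 4.92% of bins within it, 0.206% at 50 to 100 µm, 0.542% at 300 to 500 µm and 0.983% at 800 to 1500 µm. TMC4 had a dip of the same kind, from 2.35% within the outline to 0.464% at 1 to 50 µm and 0.277% at 50 to 100 µm, and 3.39% at the greatest distance. TMC2 went from 4.74% to 0.112%. The capsular region reaches up to 50 µm from that outline, so region and distance are not independent measures.

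**Figure D5:**
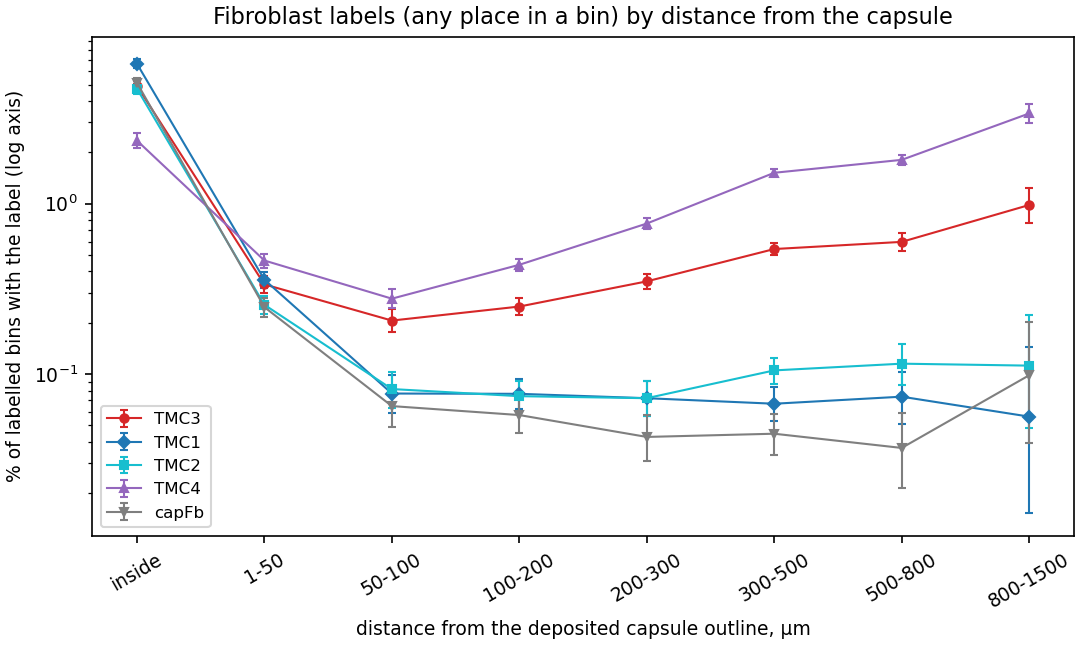
Share of labelled bins that carry each fibroblast label in any place, on a log axis, by distance from the deposited capsule outline in µm, with 95% Clopper-Pearson intervals; distance classes are of unequal width. TMC3 is at 4.92% within the outline, 0.206% at 50 to 100 µm and 0.983% in the deepest class, while TMC1, TMC2 and capFb stay at or below 0.115% past 50 µm.

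Bins with TMC3 lay near other stromal bins. Within 30 µm of the 2919 bins, 2.61% of neighbouring bins also carried TMC3, 3.71 times the share given by the regions they lie in. The same ratio was 3.47 for TMC2, 2.99 for TMC1, 2.73 for vSMC/PC, 2.36 for capFb and 2.08 for TMC4, and 2.50 for venous, 2.42 for arterial and 2.04 for capillary endothelium. Over the same labels it was 1.57 to 3.74 around TMC2 bins and 1.51 to 2.32 around TMC4 bins, so nearness to stroma was not particular to TMC3. The regions are coarse, as the TMC3 share fell from 4.92% within the capsule outline to 0.336% at 1 to 50 µm. The ratios do not take up such gradients. No bin carried TMC3 together with another fibroblast label, and vSMC/PC was not among the labels shared with it either. Whether the labelling allows such pairs is not given in the sources used here, so their absence says nothing of the tissue. The labels most often shared with TMC3 were DN (40.0% of TMC3 bins, 44.6% of all labelled bins) and DP (18.7% and 24.4%), the double-negative and double-positive stages of thymocytes. Pre DP-sig came next (7.88% and 9.42%), then AgoSel2 (6.03% and 3.34%) and Treg, regulatory T cells (4.08% and 2.26%). Cortical epithelium shared 0.377% of TMC3 bins, against 15.2% of all bins. Endothelial labels were scarce within TMC3 bins too, although frequent in bins nearby. Venous endothelium shared 0.171% against 0.753% of all bins, capillary 0.103% against 0.535% and arterial 0.0343% against 0.615%. A bin holds up to 3 labels, and how the labelling limits such pairs is not given. These low shares therefore say nothing of the tissue. The reference behind these labels drew on these rat libraries and on published mouse data, so the labels are not independent of the profiles above.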

How the data were processed

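The study measured 1 single-cell library of thymic stroma and 1 of thymocytes (used here only for shared barcodes), and 1 spatial section. The submitters' processing notes name Cell Ranger 8.0.0, Seurat 5.3.0 and the build mRatBN7.2, and the rest of the processing is not given in the sources used here. The deposited matrix holds unnormalized UMI counts of 34034 genes in each barcode. The percent of mitochondrial UMIs per cell and the weights of RCTD, a fraction per label, are as deposited by the authors, as are cell types, regions, distances and the map coordinates, a score with no unit. In the annotated table every cell has over 500 genes and under 5% mitochondrial UMIs, from the values.

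UMIs were summed per type and scaled to CPM, with 95% exact Poisson and Clopper-Pearson intervals, conditional binomial intervals for ratios of levels and log-normal intervals for ratios of shares. The distance was converted at the nominal 0.5 µm per unit. Cells were thinned to 3000 UMIs for shares and variation, which left out 63 TMC3, 20 TMC1, 31 TMC2, 36 TMC4 and 11 capFb cells. It also left out 110 epithelial, 114 endothelial and 265 lymphoid cells. No test between groups was possible with 1 sample per group. No annotated cell was removed and no doublet caller was run. The filter for cells without other types' markers cannot remove a droplet of 2 fibroblasts, so it does not stand in for one. It also drops cells for genes that fibroblasts express, such as the endothelial marker Tek, which had a UMI in 82.1% of capFb cells. The text names the 25 genes with the largest lead of TMC3 over the other 4 groups, the 15 ranked the other way, the 5 with the largest ratio per pair and direction with at least 100 UMIs in the higher group, list genes highest or lowest by 1.5-fold with a few others that show the list's range, and the 15 most variable genes. Classes of TMC3 cells were compared for genes chosen after the leading and variable genes were seen. The members, the 24 gene lists and 11 marker lists were chosen with earlier results of these data known. Symbols Cd59, Pcolce2 and Tnxb were not matched in the files. Promoters came from RefSeq by symbol, cut to the 250 bases before the start.

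Alternatives were cell filters (at least 3000 UMIs, below the 99th percentile of UMIs, no UMI of other-type markers), the mean of the cells' CPM, thinning, other folds and UMI minimums, and other ways to read the bin labels. The leading-gene rule, intervals and variance rule were tested on simulated data with known answers. The software was pandas 2.3.3, SciPy 1.17.1 and NumPy 2.4.6 under Python 3.11.15, with figures by matplotlib 3.10.9 and random seed 7.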

Additional observations from a re-analysis of the deposited data

How the results depend on the processing

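Of 568 alternative values, 394 kept their direction and stayed within the limits set, 159 moved and 15 reversed. Requiring no UMI of other-type markers left 47 TMC3 and 23 TMC4 cells, because the list holds mural genes that both groups express. It gave 0 leading genes and reversed ratios of 0.998 for Adamts4, 0 for Ankrd33b, 0.944 for Ier3, 0.111 for Ptgs2, 0.973 for Zfp36, 0.692 for Adamts9, 0.967 for Ier2, 0.758 for Rhob, 0.786 for Nr4a2 and 0.655 for Sik1. Under it, genes higher in TMC3 numbered 36 against TMC1, 30 against TMC2, 76 against TMC4 and 71 against capFb, those lower 718 against TMC2, 16 against TMC4 and 394 against capFb, and the share between was 45.1% for TMC1 and TMC2, 82.6% for TMC1 and TMC4, 40.8% for TMC1 and capFb, 84.8% for TMC2 and TMC4 and 47.0% for TMC2 and capFb. With mural markers allowed (chosen after seeing the data, 623 TMC3 cells), 18 genes led, 345 were lower than in capFb, and the shares between were 47.6%, 42.2% and 53.5% for TMC1 and TMC2, TMC1 and capFb, and TMC2 and capFb. In cells at or below the median of the immediate-early list (also chosen after seeing the data), 1 gene led, and the ratios of Il6 (0.855), Tnfaip6 (0.636), Itpkc (0.957), Ptgs2 (0.726) and Adamts9 (0.484) reversed. At 3-fold, 0 genes led, and those higher or lower numbered 415 and 248 against TMC1, 354 and 157 against TMC2, 277 and 144 against TMC4, and 841 and 496 against capFb. At a minimum of 20 UMIs they numbered 1237 and 853, 1131 and 747, 884 and 678 in the same order, and 2300 higher than capFb. Thinning gave 379 higher than TMC2, 261 higher and 240 lower than TMC4, 814 higher than capFb, and shares between of 50.0%, 43.9% and 58.2% for TMC1 and TMC2, TMC1 and capFb, and TMC2 and capFb. The mean of the cells' CPM gave 1 gene lowest in TMC3 and shares between of 42.7%, 57.6% and 86.1% for TMC1, TMC2 and TMC4 with capFb. TMC3 made up 7.13% of all barcodes and 14.0% of fibroblast cells. The median share of cells with a UMI over the 25 genes was 15.9%, 7.36% at 1000 UMIs and 28.1% without thinning, and 108 genes were overdispersed at 1000 UMIs. In the section, the capsular to cortex ratio was 3.15 for any label, 5.84 in bins at or above the median UMIs, 4.62 for confident labels and 3.21 for any label of a segmented bin, the last pair of settings being chosen after seeing the data. The mECA ratio was 1.47 in the deeper bins, and the mEFA ratio 5.32 for any label, 5.06 in the deeper bins and 4.92 for any label of a segmented bin. Bins given 1 type only gave no ratio, with 4 TMC3 bins, all capsular. Apart from the settings built to hold fewer cells, genes or UMIs, the cause was not tested. No paired analysis was possible because there was a single stromal library. With 1 library, the spread between animals is unknown.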
